A study of Mus musculus with 9 samples.

Results

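XLOC_045889 is a long non-coding RNA (lncRNA) locus on the plus strand of mouse chromosome 14 from which 7 transcripts were assembled, TCONS_00077861 to TCONS_00077867. One of them, TCONS_00077866, is the lncRNA that the series title names. The 7 transcripts were taken as those with this locus identifier in the deposited lncRNA table, and they are 7 of 15589 transcripts at 1 of 9635 loci. The values that follow are the level of each isoform in each library, the share of the locus that it took, and the sum of the locus, which does not depend on how reads were divided among isoforms.

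The libraries were made from β-TC6 cells, an insulin-secreting line grown from an insulinoma of transgenic mice, and all 9 libraries share that line. The 3 control libraries came from untreated cells, 3 libraries from cells given palmitic acid and 3 from cells given stearic acid, each acid at 400 µmol/L with albumin (1.3% BSA) over 24 h. The sources used here leave unsaid whether albumin was also added to the control cells, so a change against control cannot be told apart from an effect of albumin. Nothing in the labels makes the replicates separate cultures, so p-values measure the spread between these libraries, which may be technical. RNA depleted of ribosomal RNA was sequenced from strand-specific libraries, and lncRNA counts summed to between 1537431 and 2870275 per library. Stearic acid replicate 2 had the lowest total and stood apart on the second principal component of the loci (score −26.9, the other 8 libraries −4.47 to 11.5). The locus sum and the share and test of TCONS_00077866 are also given without it. The table holds lncRNAs alone, so coding markers of β cells were not measured. LncRNA loci were present within 10 kb of 7 of 7 genes of a β-cell list. Several of these genes were picked with a known lncRNA beside them, unlike the markers of other cell types. The count of 7 was thus partly set by the choice and does not compare cell types. Summed levels were 12800 to 13600 CPM (counts per 1000000 lncRNA counts of the library) in control libraries, 8630 to 9490 with palmitic acid and 7200 to 8290 with stearic acid. Loci lay near 1 of 4 macrophage markers (Cd68, 63.7 to 316 CPM over the 9 libraries), 2 of 3 fibroblast markers (0 to 7.8 CPM) and 0 of 2 endothelial markers. Loci near Mafa (2360 to 2600 CPM in controls, 926 to 989 with palmitic acid, 492 to 639 with stearic acid) and the loci near Ins2 and Igf2, which overlap (Ins2 3820 to 4560, 1610 to 1850 and 1110 to 1430), held most of that difference. Loci near Chga (313 to 369, 226 to 257 and 214 to 275 CPM) and Nkx2-2 (444 to 472, 422 to 429 and 389 to 418) were also lower with both acids. Those near Pcsk2 (5320 to 5430, 4990 to 5630 and 4680 to 5180 CPM) overlapped control with palmitic acid and lay below it with stearic acid. Those near Pax6 (313 to 361, 321 to 340 and 286 to 345 CPM) overlapped control with both acids. The share of all loci whose libraries lay below control in this way was not counted. These ranges therefore do not show whether such a marker stands out. The lower sums moved with both acids, and their part in the results for XLOC_045889 was not tested.

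A lncRNA gene can give several isoforms by starting at different positions, by splicing its exons in different ways and by ending at different sites. Some lncRNAs act by binding microRNAs, short RNAs that repress target messages, and a binding site can be present in one isoform and absent from another. The series title places TCONS_00077866 in such a chain: it links inhibition of this lncRNA to more miR-297b-5p, less of the acute-phase protein serum amyloid A3 (Saa3), and a milder inflammatory response of β cells to stearic acid. MiR-297b-5p, the Saa3 message and the effect of inhibiting the lncRNA were not analysed here. Short reads that fall on sequence shared by isoforms can be assigned to any of them, so the split among overlapping isoforms is an estimate.

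The locus lies between positions 72981787 and 73001540 of chromosome 14 (mm10), a span of 19754 bases, and is classed as an intergenic lncRNA with no gene name. No gene of GENCODE release M21 (GRCm38) or of RefSeq (GRCm38.p6) overlaps it. The nearest annotated feature is the pseudogene Gm9198, which ends 1883 bases upstream on the minus strand. Of the 7 coding genes within 500 kb, the closest is Cysltr2, the gene of a receptor for inflammatory leukotrienes, whose 3′ end faces the locus 24063 bases downstream. The tumour suppressor gene Rb1 lies 182133 bases downstream.

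The isoforms fell into 3 structures by exon number. TCONS_00077861, TCONS_00077862 and TCONS_00077866 have 3 exons and end at the same base, 72986780. They start at 72981787, 72981914 and 72982042, so the named lncRNA starts 255 bases after the first of them. TCONS_00077863 and TCONS_00077864 have 2 exons and share both their start, 72982012, and the 72986780 end. TCONS_00077865 and TCONS_00077867 have 4 exons, start at 72982031 and 72982602, and run on to 73001540, which is 14760 bases beyond the end of the other 5. Start and end therefore do not tell the 2-exon pair apart, and the 3-exon starts lie within 255 bases of each other.

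Spliced lengths separated the isoforms further. The authors' deposited table gives TCONS_00077866 as 3027 bases long. The other lengths were recovered from the ratio of deposited count to deposited FPKM (fragments per kilobase of transcript, scaled to library size), which was linear in length for transcripts of known length with an FPKM above 5 (92 to 134 per library), with an error of at most 0.185% for those over 800 bases. Most values of the isoforms lie below that FPKM, where this error was not measured, so the range over libraries is given with each length. From the library with the highest FPKM of each, TCONS_00077861 came to about 3180 bases (3158 to 3184 over libraries), TCONS_00077862 to 3070 (3067 to 3075) and TCONS_00077863 to 2850 (2847 to 2854). TCONS_00077864 came to about 4350 (4348 to 4359), TCONS_00077865 to 2410 (2400 to 2432) and TCONS_00077867 to 2700 (2644 to 2703). The introns removed thus add up to 1712 bases in TCONS_00077866, beside about 1797 in TCONS_00077862 and 1814 in TCONS_00077861. The 2-exon pair differed most, with about 1919 intronic bases in TCONS_00077863 and 419 in TCONS_00077864, which keeps most of its span. Reads that fall in sequence shared by TCONS_00077866 and another isoform do not tell them apart. The files give no exon coordinates, so the position of each junction was not analysed here.

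**Figure D1:**
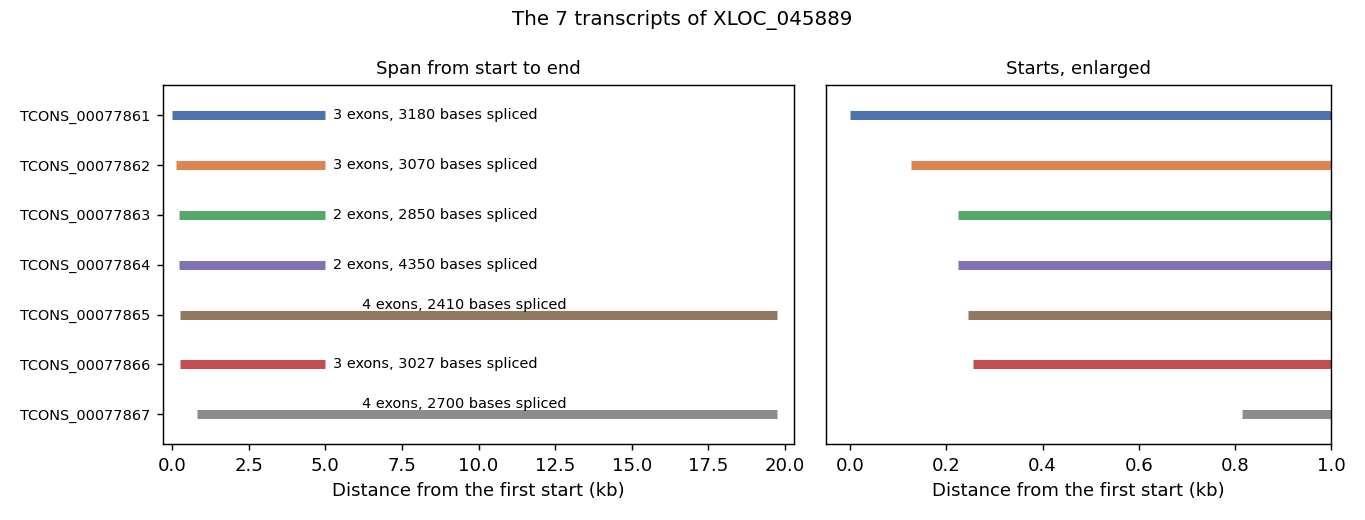
The 7 isoforms as bars from start to end, with distance from the first start in kb on the horizontal axis and exon number and spliced length beside each bar (left), and the same starts enlarged (right). Of the 7 isoforms, 5 end together and 2 run 14760 bases further, and exon positions inside the bars are not drawn because the files do not give them.

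TCONS_00077866 was counted in every stearic acid library, in 1 palmitic acid library and in no control library. Its expected counts with stearic acid were 30.6, 34.6 and 37.4 in replicates 1, 2 and 3, and its FPKM values were 5.61, 8.01 and 5.51. In palmitic acid replicate 1 it had 11.5 counts and an FPKM of 1.49, and the other 2 palmitic acid libraries and the 3 control libraries had 0. The stearic acid libraries thus lay above every library of the other groups, as they did over control for 11.8% of tested transcripts, with a mean FPKM of 6.38 ± 1.42 (SD, n = 3).

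The control libraries did hold reads of the locus in which TCONS_00077866 could have appeared. The sum of the locus was 70.0, 59.99 and 96.0 counts in control replicates 1, 2 and 3. With 0 of them assigned to TCONS_00077866, a floor of 3 counts allows a share of up to 4.29%, 5% and 3.12% of the locus. With stearic acid its share of the counts was 18.9% (95% exact binomial interval 13.4 to 26.0), 41.1% (31.0 to 52.9) and 22.8% (16.4 to 29.7). Each of these intervals begins above the share that the control counts allow. In palmitic acid replicate 1 the share was 7.53% (3.67 to 12.6), and the floor allowed 2.29% and 1.97% in palmitic acid replicates 2 and 3. Intervals and floors cover counting error only and take the assignment of reads to isoforms as given.

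**Figure D2:**
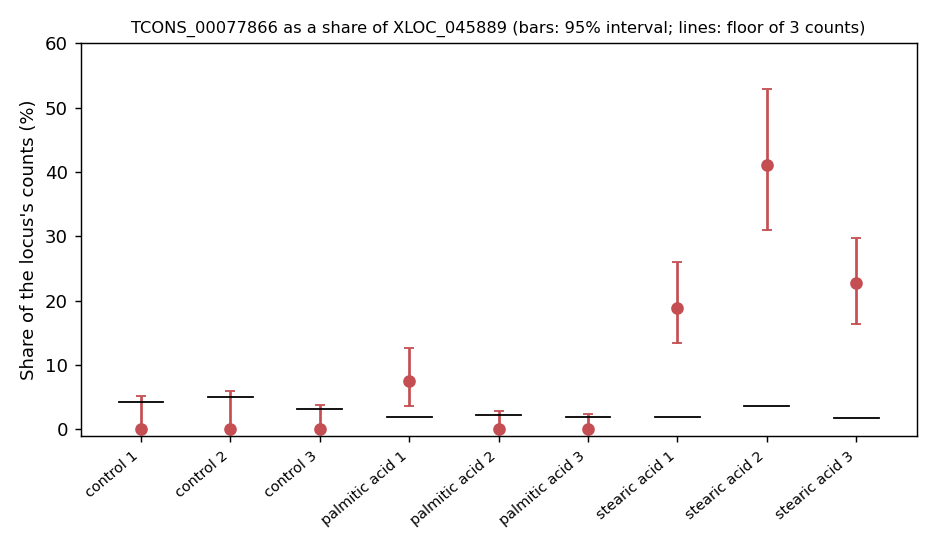
Share of the counts of XLOC_045889 assigned to TCONS_00077866 in each of the 9 libraries, in percent, as points with 95% exact binomial intervals; the short lines mark the share that 3 counts would make in that library. The stearic acid libraries lie at 18.9% to 41.1%, palmitic acid replicate 1 at 7.53%, and the remaining 5 libraries at 0.

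Over libraries, the share of TCONS_00077866 in the summed FPKM of the locus was 30.0% ± 12.5 with stearic acid, 3.05% ± 5.27 with palmitic acid and 0 in controls (SD, n = 3). The difference of 30.0 percentage points from control had an exact two-sided permutation p of 0.1, the smallest that 3 against 3 allows, and so did the 27.0 points between the acids. Without stearic acid replicate 2 these differences were 22.8 and 19.8 points. Each then had an exact permutation p of 0.2, the smallest that this test, which doubles the smaller tail, gives for 2 against 3. The authors called this transcript for stearic acid against control and against palmitic acid, from these same libraries. Both contrasts are therefore descriptions of those libraries and not independent evidence.

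In the test across transcripts, TCONS_00077866 did not pass, and other tools placed it elsewhere. EdgeR's quasi-likelihood test gave an adjusted p of 0.114 for stearic acid against control, where 1.42% of 4426 tested transcripts passed. The Wald test of DESeq2 gave an adjusted p of 0.00129, with 1.35% of transcripts passing, and edgeR without a filter on low counts gave 0.00565. The authors' deposited table lists it with a log2 fold change of 4.05 ± 0.571 (SE) and an adjusted p of 5.95e-10, the tenth smallest of 189 listed transcripts, which are 1.21% of those in the lncRNA table. Of the 189, 21 had 0 counts in every control library. Fitted fold changes of a transcript at 0 in a group depend on the tool's prior and are no measure of size. Without palmitic acid replicate 1, the one palmitic acid library that holds the isoform, the edgeR adjusted p for stearic acid against control was 0.0443, and without stearic acid replicate 2 it was 0.226.

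Between the acids, the edgeR adjusted p of TCONS_00077866 was 0.956, although every stearic acid library (14.7 to 23.6 CPM) lay above every palmitic acid library (0 to 4.08 CPM), as held for 5.22% of tested transcripts. With the Wald test of DESeq2, TCONS_00077866 had an adjusted p of 0.551 between the acids and did not pass either. Of the tested transcripts, 0% passed in that comparison with edgeR (216 at an unadjusted p under 0.05) and 0.128% with DESeq2. The authors' deposited table for stearic against palmitic acid lists TCONS_00077866 with a log2 fold change of 1.59 ± 0.41 and an adjusted p of 0.0284, among 17 transcripts or 0.109% of the lncRNA table. For palmitic acid against control the edgeR adjusted p was 0.478, with 0.407% of transcripts passing, and the authors' deposited table of 81 transcripts (0.52% of the lncRNA table) does not list it. Palmitic acid libraries overlapped the controls for TCONS_00077866, and for 11.6% of tested transcripts they all lay above them.

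Absence in one group and presence in another also occurred among other transcripts of this table. At 0 in every control library and above 0 in every stearic acid library were 92 transcripts, 0.59% of those listed, and the reverse held for 82, or 0.526%. With at least 10 counts in every stearic acid library there were 3, or 0.0192%, and TCONS_00077866 had the highest mean count of these. The reverse at that minimum, at 0 with stearic acid and at 10 or more in every control library, held for 6 transcripts, or 0.0385%. For 2 of the 3 and for 6 of the 6, the locus itself had counts in every library of the group at 0.

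The sum of XLOC_045889 rose with both acids. It was 33.8, 29.2 and 35.7 CPM in the control libraries, 55.7, 50.0 and 64.6 CPM with palmitic acid, and 77.0, 56.3 and 67.5 CPM with stearic acid. Every library of either acid lay above every control library, while the ranges of the acids overlapped (6.84% of loci had every stearic above every palmitic acid library). The mean was 32.9 ± 3.31 CPM in controls, 56.8 ± 7.36 in the palmitic acid group and 66.9 ± 10.4 in the stearic acid group (SD, n = 3). Per length, the summed FPKM of the isoforms was 10.4 ± 1.34, 17.6 ± 2.68 and 22.4 ± 4.35 in the same order.

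Against control, the locus was 2.04-fold higher with stearic acid (95% interval 1.55 to 2.67), a log2 change of 1.03 ± 0.19 (SE) with an edgeR adjusted p of 0.000674 over 3039 tested loci. In that comparison 11.8% of loci passed, 6.38% as increases, and for 15% of loci every stearic acid library lay above every control library. XLOC_045889 ranked 68th by p and 246th by log2 change among them. With palmitic acid it was 1.72-fold higher (1.31 to 2.25), a log2 change of 0.78 ± 0.19 with an edgeR adjusted p of 0.0125, where 5.56% of loci passed, 3.69% as increases, and 14.1% did not overlap in this direction. Between the acids the ratio was 1.19 (0.917 to 1.53, edgeR adjusted p = 0.814), with 0.0987% of loci passing. The comparisons with each acid share the control libraries.

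Without stearic acid replicate 2 the log2 change with stearic acid was 1.12, with an edgeR adjusted p of 0.000544. The palmitic acid call was lost without control replicate 2 (log2 change 0.71, edgeR adjusted p = 0.0733) and without palmitic acid replicate 3 (0.68, edgeR adjusted p = 0.0665).

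TCONS_00077866 held part of the higher sum with stearic acid. With TCONS_00077866 taken out, an alternative chosen after seeing the data, the rest of the locus was at 32.9 ± 3.31 CPM in controls, 55.4 ± 8.03 with palmitic acid and 49.3 ± 14.9 with stearic acid. That isoform was not counted in controls, so its removal could only lower the changes against control. Unlike the full sum, the remainder also depends on how reads were divided among isoforms. The remaining sum still passed with palmitic acid (log2 change 0.74 ± 0.21, edgeR adjusted p = 0.0398) and did not with stearic acid (0.59 ± 0.22, edgeR adjusted p = 0.0814). The palmitic acid call on this remainder held without stearic acid replicate 1 or 2 (edgeR adjusted p = 0.0355 and 0.0128) and was lost without any one of the other 7 libraries (0.0510 to 0.163) and with library size alone (log2 change 0.68, edgeR adjusted p = 0.0941). Between the acids it was −0.15 ± 0.21 (edgeR adjusted p = 0.920), with overlapping libraries, so a difference between the acids in this remainder was not shown. Stearic acid replicate 2 had 49.5 counts outside TCONS_00077866, against 131 and 127 in replicates 1 and 3, and without it the stearic acid change of the remainder was 0.78 (edgeR adjusted p = 0.0156).

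**Figure D3:**
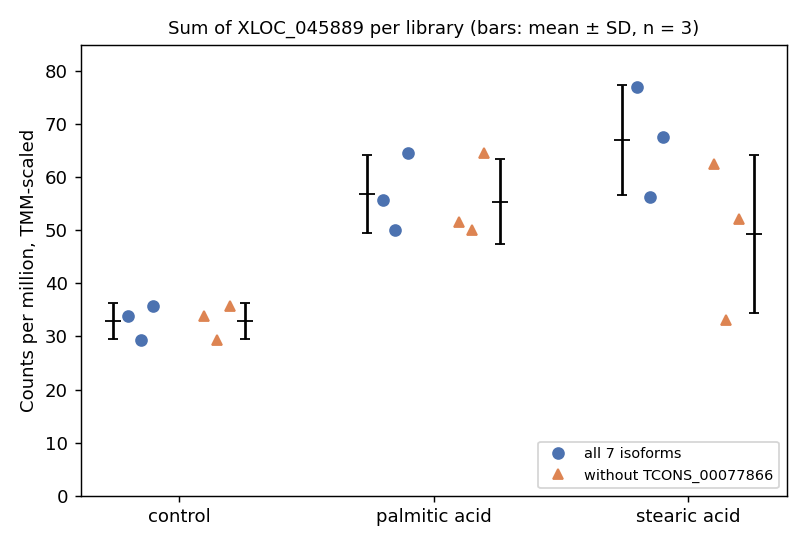
Sum of XLOC_045889 in CPM for each library, by group, with all 7 isoforms (circles) and without TCONS_00077866 (triangles); bars give mean ± SD, n = 3. With all isoforms every acid-treated library lies above every control library (controls 29.2 to 35.7 CPM), and without TCONS_00077866 stearic acid replicate 2 falls into the control range.

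The split of the locus into isoforms varied from one replicate to the next, and whether isoform levels or read assignment varied was not tested. The locus sum was a whole number in 9 of 9 libraries (within 0.02), while the counts of single isoforms were mostly fractions of reads. At all loci with 2 or more transcripts, 80.3% of sums above 0 and 35% of transcript counts above 0 were whole within the same tolerance.

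The other 3-exon isoforms, TCONS_00077861 and TCONS_00077862, each appeared in 6 of 9 libraries, spread over the 3 groups. TCONS_00077861 had 17.9, 0 and 5.75 counts in controls, 44.5, 0 and 0 with palmitic acid, and 27.5, 2.37 and 10.3 with stearic acid. TCONS_00077862 had 0, 0 and 44.8 counts in controls, 19.9, 17.3 and 120 with palmitic acid, and 20.8, 22.0 and 0 with stearic acid. Palmitic acid replicate 3 held 81.9% of its locus FPKM as TCONS_00077862, the highest share of any isoform in any library. Both isoforms overlapped between all pairs of groups, with log2 changes against control of 0.63 and 1.92 with palmitic acid and 0.80 and 0.50 with stearic acid, each with a standard error of at least 1.70 and an edgeR adjusted p of 0.804 or more.

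The 2-exon isoforms differed in how evenly they were counted. TCONS_00077864, which keeps most of its span as exon, was the one tested isoform counted in all 9 libraries, with 40.7, 32.5 and 26.4 counts in controls, 75.0, 51.2 and 24.7 with palmitic acid and 59.5, 20.8 and 57.8 with stearic acid. Its log2 change was 0.39 ± 0.43 with palmitic acid and 0.57 ± 0.43 with stearic acid (edgeR adjusted p = 0.861 and 0.619), and its groups overlapped. TCONS_00077863, with the same start and end, was at 8.92, 24.9 and 8.85 counts in controls, 0, 33.8 and 0 with palmitic acid, and 8.67, 0 and 47.4 with stearic acid. Its log2 change was −0.57 ± 1.69 and 0.29 ± 1.67 with the 2 acids (edgeR adjusted p = 0.973 and 0.962).

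The 4-exon isoforms that reach the far end were not tested, because they did not pass the filter on low counts. TCONS_00077865 was present in all 9 libraries at 1.2 to 15.0 counts, with FPKM values of 0.937 ± 0.583 in controls, 0.983 ± 0.680 in palmitic acid libraries and 2.26 ± 1.20 in stearic acid libraries (SD, n = 3). TCONS_00077867 had 20.2 counts in palmitic acid replicate 2, 0.41 in stearic acid replicate 2 and 0 in the other 7 libraries. TCONS_00077867 thus rested on 1 library.

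**Figure D4:**
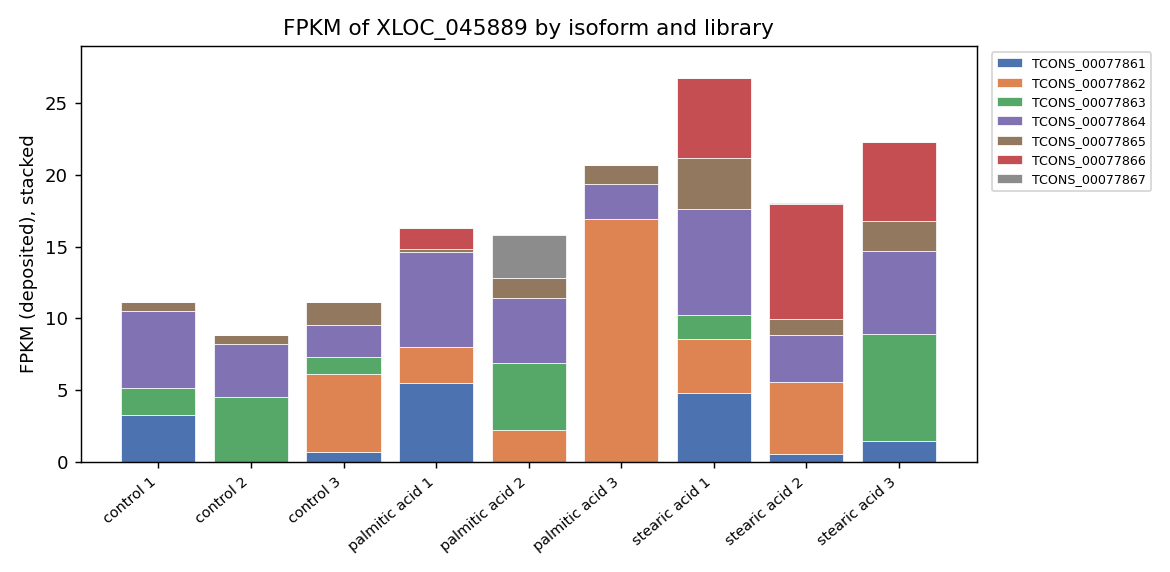
Deposited FPKM of the 7 isoforms of XLOC_045889, stacked per library, so that the height of a column is the sum of the locus per length. The sum lies between 8.81 and 11.1 in controls and above 15 in all acid-treated libraries, and the make-up of the columns varies between replicates of one group.

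Per length, the order of the isoforms changed between groups. In controls TCONS_00077864 had the highest mean FPKM (3.78 ± 1.58), followed by TCONS_00077863 (2.50 ± 1.75), TCONS_00077862 (1.82 ± 3.15), TCONS_00077861 (1.32 ± 1.74) and TCONS_00077865. With palmitic acid TCONS_00077862 came first (7.24 ± 8.42), before TCONS_00077864 (4.51 ± 2.10) and TCONS_00077861 (1.83 ± 3.16). With stearic acid TCONS_00077866 came first (6.38 ± 1.42), before TCONS_00077864 (5.49 ± 2.08) and TCONS_00077863 (3.05 ± 3.899). Neighbours among the isoforms given with their SDs differed by less than the larger of their SDs. The isoform with the highest FPKM was the same in at most 1 of 3 libraries of a group.

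The spread between replicates was larger for the isoforms than for their sum. In the fit, the biological coefficient of variation (the replicate spread beyond counting error) was 1.63, 1.60 and 1.57 for TCONS_00077861, TCONS_00077862 and TCONS_00077863, 1.04 for TCONS_00077866 and 0.394 for TCONS_00077864. For the sum of the locus it was 0.142. Over all tested features the common value was 0.564 for transcripts and 0.204 for loci. Each of these values pools the 3 groups. The CPM of TCONS_00077866 had an SD of 28.0% of its mean with stearic acid and of 173% with palmitic acid. A count of 0 in one library and of 20 or more in another of the same group occurred in at least 1 group for 4 of the 7 isoforms, and for 3 of the 5 tested ones. Among the tested transcripts of loci with 2 or more transcripts it occurred for 20.5%, and among those of single-transcript loci for 0.258%. TCONS_00077866 showed no such swing with stearic acid. In the other groups its counts (11.45, 0 and 0 with palmitic acid, 0 in controls) lay below the minimum of 20, so a swing could not be counted there.

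**Figure D5:**
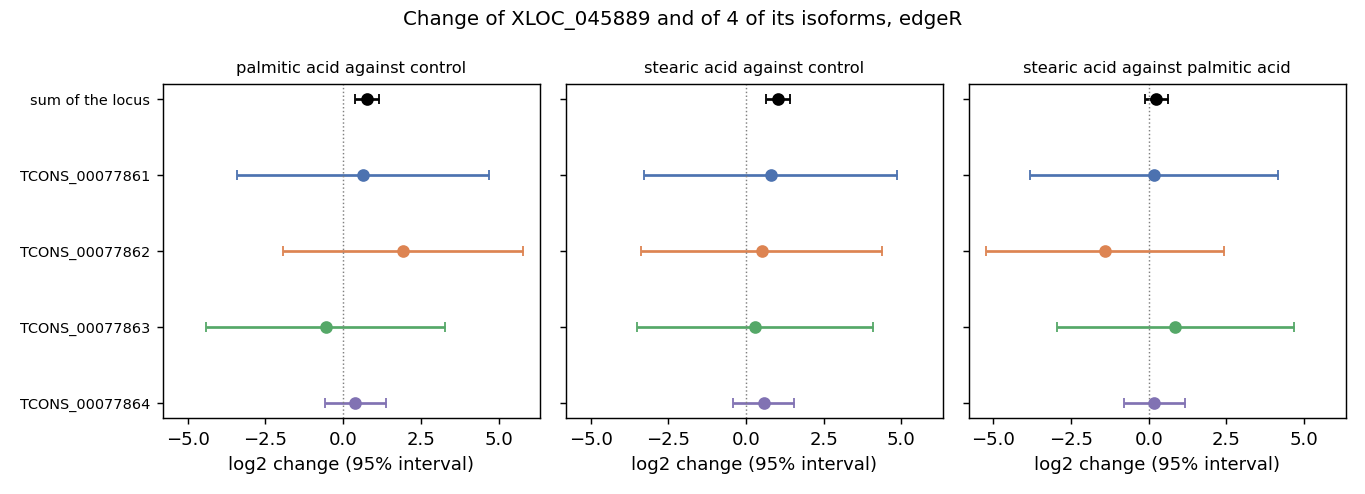
Log2 change with its 95% interval for the sum of XLOC_045889 and for 4 of its isoforms in the 3 comparisons, from edgeR's quasi-likelihood fit; the dotted line marks no change. The intervals of the sum exclude 0 against control with both acids and those of the 4 isoforms include 0, and TCONS_00077866 is left out because its fitted change against a group at 0 is no measure of size.

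Isoforms were also summed by structure, a grouping chosen after seeing the data. The 3-exon isoforms together, of which TCONS_00077866 is one, had 17.9, 0 and 50.6 counts in controls, 75.8, 17.3 and 120 with palmitic acid, and 78.9, 59.0 and 47.7 with stearic acid. In CPM they averaged 9.22 ± 9.48, 28.4 ± 22.3 and 32.3 ± 10.9 (SD, n = 3), and the lowest stearic acid library (19.8 CPM) lay just above the highest control library (18.9 CPM). Over all tested loci, 15% had every stearic acid library above every control library. TCONS_00077866 adds counts to this sum with stearic acid and none in controls. Their log2 change was 1.72 ± 0.61 with stearic acid and 1.54 ± 0.60 with palmitic acid (edgeR adjusted p = 0.0690 and 0.143), and 0.17 ± 0.54 between the acids (edgeR adjusted p = 0.966). The interval of this last ratio, 0.517 to 2.47, includes both a lower and a higher level with stearic acid. The 2-exon isoforms together averaged 21.7 ± 7.71, 23.5 ± 11.4 and 29.9 ± 14.7 CPM, and the 4-exon isoforms 2.21 ± 1.30, 4.80 ± 5.58 and 4.78 ± 2.24 CPM, with overlapping groups. Their edgeR adjusted p against control lay between 0.426 and 0.878. The 3-exon result depended on the fit. With stearic acid it passed without control replicate 3 (log2 change 2.85, edgeR adjusted p = 0.0137), without palmitic acid replicate 2 (1.71, 0.0354), with library size alone (1.76, 0.0449) and without a filter on low counts (1.69, 2.58e-06), and it did not pass without any one of the other 7 libraries (0.0604 to 0.230). With palmitic acid it passed without control replicate 3 (2.67, 0.0365), without palmitic acid replicate 2 (2.01, 0.0401) and without a filter (1.54, 4.05e-05), and not without any one of the other 7 libraries (0.137 to 0.582).

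Whether the isoforms changed by different amounts was tested with edgeR's test of differential usage over 762 loci with at least 2 tested transcripts. XLOC_045889 did not pass in any comparison (adjusted p = 1.00 in each), where 0.131% of loci passed with palmitic acid, 0.525% with stearic acid and 0.394% between the acids. Its unadjusted p was 0.0786 for stearic acid against control. Within that test TCONS_00077866 had an unadjusted p of 0.0157 against the rest of the locus and an adjusted p of 0.770.

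The 2 lncRNA loci tested around XLOC_045889 did not pass in any of the 3 comparisons. Of 7 other lncRNA loci within 500 kb, 1 was at 0 in every library and 2 were tested, with 0 higher and 0 lower. Over all tested loci, 5.56% passed with palmitic acid, 11.8% with stearic acid and 0.0987% between the acids. With 2 loci tested, the absence of calls therefore says little about the neighbourhood. XLOC_045887, 139549 bases upstream, was at 12.8 ± 4.83 CPM in controls, 12.7 ± 6.22 with palmitic acid and 12.7 ± 2.75 with stearic acid. XLOC_046927, 110621 bases upstream on the minus strand, was at 4.43 ± 1.65, 3.79 ± 1.02 and 6.35 ± 1.49 CPM. The closest, XLOC_045890, lies 14714 bases downstream towards Cysltr2 and had 2 counts over the 9 libraries. The median log2 change of the tested pair was −0.10 with palmitic acid and 0.25 with stearic acid, beside −0.02 and 0.01 over all tested loci.

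LncRNAs near the other genes of the title's chain were scarce. Within 100 kb of the serum amyloid A genes there was 1 lncRNA locus, XLOC_135254, with 18 counts over the 9 libraries, and it was not tested. Within 100 kb of Sfmbt2, the Polycomb-group gene whose intron hosts the mouse miR-297 family, there were 2 loci. The tested one, Gm13261, was at 19.6 ± 2.25 CPM in controls, 13.7 ± 5.88 with palmitic acid and 13.3 ± 8.72 with stearic acid, with log2 changes of −0.50 and −0.56 (edgeR adjusted p = 0.530 and 0.428). Neither list held a locus that passed in any comparison, but only Gm13261 was tested. Most tested loci did not pass either (5.56% passed with palmitic acid, 11.8% with stearic acid and 0.0987% between the acids). Levels of the microRNAs and coding genes themselves cannot be read from these loci.

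The loci whose log2 CPM over the 9 libraries was most like the sum of XLOC_045889 had Pearson r of 0.968 to 0.979, as a description, since the points share libraries and groups. They were XLOC_053499, antisense to Csmd3 (200 ± 35, 562 ± 55.4 and 642 ± 189 CPM in control, palmitic acid and stearic acid), XLOC_114592 on chromosome 5, XLOC_013578 on chromosome 10, XLOC_060268 on chromosome 16 and C130083M11Rik. XLOC_013578 was also close in level, at 33.4 ± 4.41, 56.9 ± 3.45 and 66.7 ± 4.70 CPM. Strand handling in the counting is unstated, and in unstranded counts Csmd3 and its antisense locus cannot be told apart. The transcripts of other loci most like TCONS_00077866 had r of 0.908 to 0.946 over the same 9 libraries. Of these, TCONS_00139248 on chromosome 2 had 0 to 1 counts in controls, 0 to 9.97 with palmitic acid and 16.5 to 21.4 with stearic acid. The others were counted in controls as well. B430212C06Rik (TCONS_00123093), with the highest r, had 20 to 26 counts in controls, 31 to 48 with palmitic acid and 37.95 to 62 with stearic acid. In the same order, Gm14264 had 0 to 9, 0 to 19.94 and 24.65 to 36. Gm12996 had 12 to 18.35, 10 to 21 and 23 to 31, and Gm12454 had 6 to 7, 6 to 19 and 11 to 31.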

How the data were processed

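Expected counts per transcript and FPKM were deposited by the authors for each of the 9 libraries. Per the submitters' processing notes, bcl2fastq 2.17.1.14, Trimmomatic 0.30, HISAT2 2.0.1 and HTSeq 0.6.1 were used with mm10, and DESeq for comparisons. The sources used here name neither the assembler nor the annotation, and do not say how fractional counts or strand were handled. The count to FPKM ratio shows that the deposited FPKM was scaled to each library's lncRNA total, with 211 to 231 bases taken off each length. The authors' deposited tables of comparisons hold a mean normalised signal, a log2 fold change, its standard error and a test score, and p-values with their adjusted values.

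Expected counts were rounded, filtered with filterByExpr (4426 transcripts, 3039 loci), scaled with TMM and fitted with edgeR 4.0.16 (quasi-likelihood test, all 9 libraries, 6 residual degrees of freedom, R 4.3.3), with Benjamini-Hochberg adjustment over all tested features, called under 0.05 and two-sided. Locus counts were sums over all transcripts of a locus identifier. CPM was computed on the TMM-scaled lncRNA total, and a floor of 3 counts equalled 1.1 to 2.02 CPM. Shares were compared with an exact permutation test (scipy 1.17.1). Alternatives included DESeq2 1.42.0. Named features are the 7 isoforms, tested lncRNA loci within 500 kb, those within 100 kb of Saa genes and Sfmbt2, and the 5 loci and 5 transcripts most alike by Pearson r. The members and lists were chosen with earlier results of these data known. The position and sequence of the exons were not analysed here.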

Additional observations from a re-analysis of the deposited data

How the results depend on the processing

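The direction of the locus sum against control held in each alternative fit, including DESeq2, DESeq2 size factors, library size alone, no filter, fits of only the 2 groups and each library left out. Leaving out a library gave log2 changes of 0.68 to 0.86 with palmitic acid, 0.91 to 1.12 with stearic acid and 0.13 to 0.34 between the acids. Without TCONS_00077866 they were 0.59 with stearic acid, no longer a call, and −0.15 between the acids, reversed and not a call; removal of that isoform's counts is the construction of this alternative. For TCONS_00077866 with stearic acid, log2 changes were 8.33 (no filter, adjusted p 0.00565), 8.27 (only the 2 groups, 0.0394), 7.78 (DESeq2, 0.00129) and 3.62 (DESeq2 with a prior on fold changes, chosen after seeing the data, 1.27e-06), each a call, and 8.16 to 8.48 with a library left out (adjusted p 0.0443 to 0.247). The cause was not tested.

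No pair of same-numbered libraries had a correlation of deviations over 0.1 (−0.042 to 0.083), and 3 of 9 libraries correlated best with their own number. These values show no pairing by number, and whether same-numbered samples were handled together is unstated. With the replicate block, 1 transcript passed with palmitic acid and 16 with stearic acid, isoform usage calls were 0, 2 and 0 (palmitic acid, stearic acid, between the acids), and the changes of TCONS_00077861 with palmitic acid (−0.32) and TCONS_00077862 between the acids (0.08) reversed without being calls. The 3-exon sum passed with stearic acid under the block (log2 change 2.12, adjusted p 0.02), unlike in the unblocked fit. The locus calls numbered 161, 361 and 3 with the block.

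Transcript calls were 18, 63 and 0 in the 3 comparisons. They became 48, 115 and 17 without a filter, 76, 159 and 15 with DESeq2, 7 and 28 with only the 2 groups, 34 for stearic acid with library size alone, and 84 for palmitic acid and 4 between the acids with the DESeq2 prior. With a library left out they ranged from 1 to 16, 8 to 33 and 0 to 2. The 0 transcripts between the acids stand beside 2 without stearic acid replicate 2. Locus calls were 169, 358 and 3, became 196 for stearic acid with the DESeq2 prior and 13 between the acids without a filter, and ranged from 104 to 240, 236 to 373 and 0 to 4 with a library left out. Isoform usage calls were 1, 4 and 3, and between the acids 1 with DESeq2 size factors or without a filter. They ranged from 0 to 2, 1 to 6 and 1 to 3 with a library left out. Transcripts at 0 in every control library and above 0 in every stearic acid library fell from 92 to 3 with at least 10 counts, and numbered 163 to 224 with a library left out, since fewer libraries had to meet the condition.

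With a library left out, log2 changes that were not calls changed sign. They ranged from −6.03 to 2.22 (palmitic acid), −0.35 to 2.38 (stearic acid) and −0.98 to 6.82 (between the acids) for TCONS_00077861, −0.22 to 7.17 (stearic acid) and −2.14 to 0.21 (between the acids) for TCONS_00077862, −6.89 to 0.22, −1.54 to 1.06 and −0.95 to 7.17 for TCONS_00077863, and −0.10 to 0.54 between the acids for TCONS_00077864. By structure they ranged from −0.15 to 0.49 for 2 exons with palmitic acid, −0.30 to 0.88 for 3 exons between the acids, and −0.47 to 1.68 with palmitic acid and −0.54 to 1.55 between the acids for 4 exons, which was −0.0194 without a filter. Between 59.99 and 164 counts per library at the locus limit what can be said of single isoforms.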
